A study of Homo sapiens with 6 samples.

Results

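The 10 early response genes were examined in HCT116 cells, a human colorectal carcinoma line: EGR1, EGR2, EGR3, IER2, IER3, IER5, KLF4, KLF6, KLF10 and GADD45A. Each gene symbol matched 1 row of a table of 61806 genes, and all 10 passed the filter on low counts that left 15687 genes. The genes were chosen by symbol with the measured differences between si-STRIP2 and si-NC cells already known. Those differences, and the calls and intervals that a fit over all genes gave them, are therefore a description and no independent test of the 10 genes. RNA-seq was performed on 3 libraries with a control short interfering RNA (si-NC, labelled wildtype) and on 3 with one against STRIP2 (si-STRIP2, labelled STRIP2 knockdown). A short interfering RNA is a duplex that directs the cutting of a matching transcript, and STRIP2 codes for a part of STRIPAK, an assembly of a phosphatase with kinases. Both groups were grown in McCoy's 5A medium with serum and antibiotics. The number of different short interfering RNAs, their dose and the time of harvest are not given in the sources used here. Whether replicate libraries come from different cultures is not stated either, so p-values measure the spread between these libraries, which may be technical.

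Early response genes are transcribed within minutes of a growth factor, serum or stress signal, without new protein synthesis. In the classical route, ERK phosphorylates ternary complex factors that sit with the serum response factor SRF on CArG boxes in the promoters of EGR1 and related genes. The EGR and KLF genes encode zinc finger transcription factors, the IER genes encode small regulators that are not related to them, and GADD45A encodes a stress protein that binds kinases and PCNA.

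The sequences upstream of EGR1, EGR2 and IER5 are shown because EGR1 and EGR2 hold the classical SRF element and were lower in si-STRIP2 cells, while IER5 was the 1 gene of the 10 called higher. They were picked after the motif matches below were known, and a link between a motif and a difference was not tested. Each is the 250 bases before a transcription start in RefSeq (GRCh38.p14), 5′ to 3′ on the strand of the gene. Capitals mark CArG boxes in EGR1 (chr5:138465229-138465478, plus strand) and in EGR2 (chr10:62816367-62816616, minus strand), and the 8-base heat shock element pair in IER5 (chr1:181088450-181088699, plus strand). None of these 3 stretches touches an exon of GENCODE 29. The EGR2 stretch precedes the most downstream of its RefSeq starts and lies within the span of the gene given below. Which start these cells use is not known from counts per gene.
EGR1: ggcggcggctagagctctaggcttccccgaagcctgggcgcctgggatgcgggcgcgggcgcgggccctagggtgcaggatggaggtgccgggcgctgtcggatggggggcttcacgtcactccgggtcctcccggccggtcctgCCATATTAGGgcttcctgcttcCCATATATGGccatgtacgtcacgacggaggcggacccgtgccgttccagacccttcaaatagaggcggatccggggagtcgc
EGR2: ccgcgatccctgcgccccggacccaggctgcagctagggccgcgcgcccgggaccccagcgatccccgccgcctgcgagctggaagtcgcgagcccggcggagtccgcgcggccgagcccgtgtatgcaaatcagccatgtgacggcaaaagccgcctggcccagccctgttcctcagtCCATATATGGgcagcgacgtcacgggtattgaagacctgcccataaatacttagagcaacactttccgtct
IER5: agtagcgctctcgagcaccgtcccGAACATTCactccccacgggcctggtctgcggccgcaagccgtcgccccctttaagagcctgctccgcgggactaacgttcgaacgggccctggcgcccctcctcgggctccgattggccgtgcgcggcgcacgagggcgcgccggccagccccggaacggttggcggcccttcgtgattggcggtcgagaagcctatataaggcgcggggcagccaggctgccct

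RefSeq windows from 250 bases before to 50 bases after a start were found for 6 of the 10 genes, 8 windows in all, because EGR2 has 3 starts. EGR3, GADD45A, IER3 and KLF10 had no entry. A CArG box (CC, then 6 bases that are A or T, then GG, either strand) was found in 2 of the 8 windows, against 1.29% of all 35116 windows. EGR1 held 2 boxes, CCATATTAGG starting 105 bases and CCATATATGG starting 83 bases upstream of its start. The second of these spellings, CCATATATGG, also stood 71 bases upstream of the most downstream start of EGR2. The heat shock pair GAANNTTC, which is shorter than the heat shock triple sought below, was found in IER5 alone of the 6 genes and in 6.77% of all windows. The EGR site itself (GCGTGGGCG or GCGGGGGCG, both strands) was found in KLF6 alone, as GCGGGGGCG, and in 5.77% of all windows. The cyclic AMP element TGACGTCA (1.85% of all windows), the AP-1 site (TGACTCA or TGAGTCA, 4.95%) and the TATA box word TATAAA (11.5%) were found in none of the 8 windows. The IER5 sequence above holds TATATAAG near its start, a similar stretch that the word TATAAA does not match. The shorter words GGGCGG (a GC box, 44.95% of all windows) and TGACG (the first bases of the cyclic AMP element, 24.6%) were found in 5 and 4 of the 8 windows. The ETS word CCGGAA (17.2% of all windows) was found in IER2 and IER5, and the TEAD word GGAATG (14.03%) and an NF-kB site (11.3%) in EGR2. A heat shock triple (0.490%) and a CACCC box (CCCACCC or CACACCC, 25.2%) were in none of the 8. These 13 motifs, each sought on both strands, are those searched. Other spellings were not counted, so a word that was not found does not show that the element is absent. For example, TTCC, the reverse complement of the GGAA within CCGGAA, stands between the 2 CArG boxes of EGR1. TGACGTCA contains TGACG, the triple contains the pair, and the EGR site of KLF6 overlaps a GC box. These are matches of letters and not shown to be bound sites.

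The libraries held 17184963 to 21721218 counts each. The targeted transcript, STRIP2, averaged 3.59 ± 0.347 FPKM in control libraries and 2.61 ± 0.0929 after knockdown (SD, n = 3; log2 fold change -0.46, SE 0.083, edgeR adjusted p = 1.62e-05), which leaves 72.6% of its mean. The share of counts from mitochondrial genes ranged from 4.88% to 8.88% in si-NC and from 5.73% to 6.30% in si-STRIP2 (p = 0.5 in a 2-sided exact permutation test, which cannot go below 0.1 with 3 against 3). Of 7 epithelial markers, 6 had at least 1 FPKM in every library, and VIL1 was near 0. Of 6 fibroblast markers, COL1A2 had 0 counts in every library, and DCN had 1 count, in si-NC replicate 2. COL1A1 had 1.89 to 2.55 FPKM over the libraries. It made up most of the summed level of the 6 fibroblast markers, which was at most 2.68 FPKM. The 6 leukocyte markers summed to at most 0.60 FPKM and the 4 endothelial markers to 0.37 to 0.46 FPKM in si-NC and 0.16 to 0.23 in si-STRIP2.

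Most of the 10 genes were lower in si-STRIP2 cells, but 3 were not. By edgeR at an adjusted p under 0.05 over all tested genes, 7 of the 10 were lower, 1 (IER5) was higher, and IER2 and KLF10 did not pass. Across all tested genes 27.0% were called lower, 27.8% higher and 54.8% either way, and nothing is read from the comparison because the genes were chosen on this contrast. The FPKM values (counts scaled by exonic length and by library total) were apart between the groups for 8 of the 10 genes, as for 58.6% of tested genes. The median log2 fold change was -0.82 over the 10 genes and 0.014 over all tested genes. In bulk RNA, fewer cells that express a gene and less RNA per cell cannot be told apart.

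**Figure D1:**
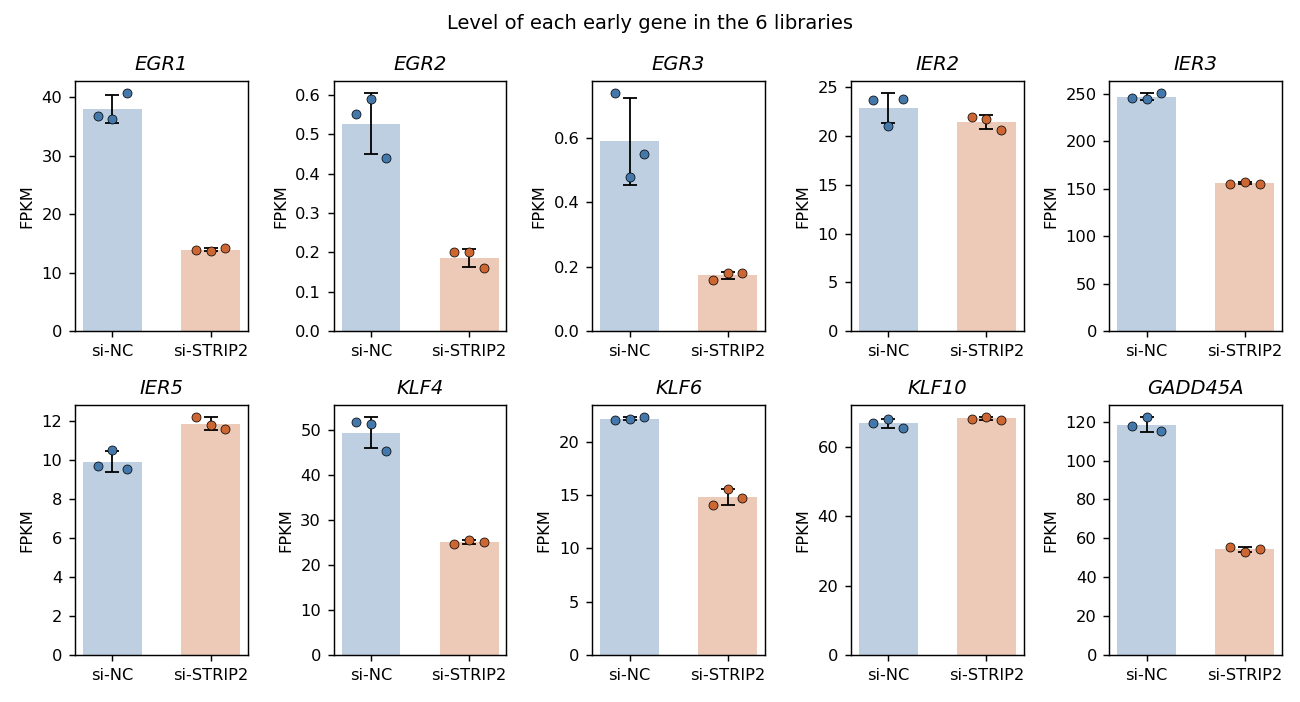
FPKM of each of the 10 genes (y axis, from 0, own scale in each panel) in si-NC and si-STRIP2 libraries. Points are libraries, bars are means and error bars are SD (n = 3); the points of the groups overlap for IER2 and KLF10 and are apart for the other 8 genes.

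The 3 EGR genes were lower in si-STRIP2 cells by 2.74 to 3.43 times, although their levels differed widely. EGR1 (ENSG00000120738, chromosome 5, 138465479 to 138469303, plus strand) encodes the zinc finger factor that links growth signals to a second wave of transcription. It had 36.84, 36.35 and 40.77 FPKM in the si-NC libraries and 13.87, 13.66 and 14.18 in the si-STRIP2 libraries. Every si-STRIP2 value was far below every si-NC value, and the si-STRIP2 values lay close together. The log2 fold change was -1.45 (SE 0.050), a 2.74-fold lower level. In si-NC, 93.6% of tested genes had a lower FPKM than EGR1, and in si-STRIP2 80.6% did.

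EGR2 (ENSG00000122877, chromosome 10, 62811996 to 62819167, minus strand), best known from hindbrain and peripheral nerve, had 44, 38 and 28 counts in si-NC and 14, 13 and 10 in si-STRIP2. These are 0.55, 0.59 and 0.44 FPKM against 0.20, 0.20 and 0.16, with no overlap. EGR3 (ENSG00000179388, chromosome 8, 22687659 to 22693480, minus strand), which is itself a target of EGR1 in several cell types, had 81, 42 and 48 counts in si-NC and 15, 16 and 16 in si-STRIP2. Its FPKM was 0.74, 0.48 and 0.55 against 0.16, 0.18 and 0.18, again without overlap, and si-NC replicate 1 was the highest. The log2 fold change was -1.49 (SE 0.28) for EGR2 and -1.78 (SE 0.25) for EGR3, and these errors are wide because of the low counts. EGR4 was not tested, with 4 to 6 counts per si-NC library and 2 to 3 per si-STRIP2 library. EGR1 supplied 96.8% ± 0.519 of the summed FPKM of the 4 EGR genes in control libraries and 97.1% ± 0.142 after knockdown (SD, n = 3). The mean share of EGR1 moved by less than its SD in si-NC, though by more than its SD in si-STRIP2. The sum of the family went from 39.2 ± 2.34 to 14.3 ± 0.253 FPKM.

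Of 3 further genes, EGR4 and the corepressors NAB1 and NAB2 that bind EGR proteins and limit their activity, 2 were tested. Both corepressors were called lower (median log2 fold change -0.47, against 0.014 over all tested genes, of which 27.0% were called lower). NAB2, whose own transcription is induced by EGR1, went from 21.7 ± 0.843 to 12.4 ± 0.992 FPKM (SD, n = 3; log2 fold change -0.81, SE 0.055, edgeR adjusted p = 1.96e-14), and its groups did not overlap. NAB2 is uncertain in 1 respect, since the count of STAT6, a gene that overlaps it, was 116% of its own, and the strand setting of the counting is not given in the sources used here. NAB1 fell by 0.13 on the log2 scale (SE 0.047, edgeR adjusted p = 0.0211), a call that was lost without si-NC replicate 2, without si-STRIP2 replicate 1 and under limma.

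The 3 IER genes each did something different. IER3 (ENSG00000137331, chromosome 6, 30743199 to 30744548, minus strand), which encodes a short-lived regulator of cell survival, was the most abundant of the 10 genes. It had 245.64, 244.42 and 250.78 FPKM in si-NC and 155.37, 157.15 and 155.39 in si-STRIP2. The groups were far apart and the values within each were tight, with a log2 fold change of -0.67 (SE 0.039). IER2 (ENSG00000160888, chromosome 19, 13150411 to 13154911, plus strand), a nuclear and cytoplasmic early protein of incompletely known function, had 23.67, 21.03 and 23.79 FPKM in si-NC and 21.93, 21.72 and 20.61 in si-STRIP2. Its groups overlapped, because si-NC replicate 2 lay among the si-STRIP2 values. The log2 fold change of IER2 was -0.10 (95% interval -0.20 to 0.0019). Without si-NC replicate 2 it was -0.16, past the threshold.

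IER5 (ENSG00000162783, chromosome 1, 181088700 to 181092900, plus strand) encodes a protein that brings the phosphatase PP2A with its B55 subunit to targets such as the heat shock factor HSF1. It had 9.69, 10.52 and 9.56 FPKM in si-NC and 12.23, 11.80 and 11.58 in si-STRIP2. All 3 si-STRIP2 values were above all 3 si-NC values by a modest margin, with a log2 fold change of 0.26 (SE 0.053). IER3 supplied 85.8% ± 0.170 of the summed FPKM of IER2, IER3, IER5 and IER5L in si-NC and 79.3% ± 0.490 in si-STRIP2, and the share of IER5 went from 3.45% ± 0.225 to 6.03% ± 0.147 (SD, n = 3).

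Of the IER5 paralogue IER5L, the PP2A core and B55 subunits and HSF1, 9 of 10 genes were tested, of which 3 fell, 1 rose and 5 did not pass (median log2 fold change -0.074, against 0.014 over all tested genes). With 27.0% of all tested genes called lower, 27.8% higher and 54.8% either way, these counts are near or under the background. The gene that rose was PPP2R1A, the main scaffold subunit of PP2A, which went from 17.9 ± 0.545 to 26.0 ± 0.599 FPKM (SD, n = 3; log2 fold change 0.53, SE 0.041, edgeR adjusted p = 4.39e-13). Those that fell were the catalytic subunit PPP2CA (log2 fold change -0.29, SE 0.045), the second scaffold PPP2R1B (-0.24, SE 0.067) and the B55 subunit PPP2R2A (-0.18, SE 0.041), with edgeR adjusted p-values of 1.72e-06, 0.00279 and 0.000381. PPP2R1B overlaps SIK2, which held 157% as many counts. HSF1 did not pass, with 11.1 ± 0.387 FPKM in si-NC and 10.6 ± 0.874 in si-STRIP2.

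Of the 3 KLF genes, 2 were lower and KLF10 stayed near its control level. KLF4 (ENSG00000136826, chromosome 9, 107484852 to 107490482, minus strand), a factor of differentiating intestinal epithelium and of pluripotency, had 51.61, 51.14 and 45.29 FPKM in si-NC and 24.68, 25.60 and 25.16 in si-STRIP2. The groups were far apart, and si-NC replicate 3 was the lowest control. The log2 fold change was -0.98 (SE 0.046), so that 51.0% of the control FPKM remained. KLF6 (ENSG00000067082, chromosome 10, 3775996 to 3785281, minus strand), a widely expressed growth regulator, had 22.10, 22.15 and 22.39 FPKM in si-NC and 14.10, 15.63 and 14.78 in si-STRIP2. Its si-NC values were nearly identical and every si-STRIP2 value lay below them, with a log2 fold change of -0.59 (SE 0.044).

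KLF10 (ENSG00000155090, chromosome 8, 102648784 to 102655725, minus strand), an early target of TGF-beta signalling, had 66.80, 68.03 and 65.49 FPKM in si-NC and 68.11, 68.67 and 67.70 in si-STRIP2. These ranges overlapped, with a log2 fold change of 0.026 (SE 0.039, 95% interval -0.049 to 0.10). At 4300 to 5544 counts per library, counting error was small for KLF10, and its interval leaves out changes as large as those of KLF4 and KLF6.

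Of 14 other Kruppel-like factor genes, 12 were tested, and 8 fell while 0 rose (median log2 fold change -0.56, against 0.014 over all tested genes, of which 27.0% were called lower). KLF5, a growth factor-responsive gene of the intestinal crypt, went from 28.5 ± 0.847 to 14.2 ± 0.833 FPKM (SD, n = 3; log2 fold change -1.001, SE 0.047, edgeR adjusted p = 1.55e-18). KLF9, which is induced by glucocorticoid and other hormones, went from 11.3 ± 0.869 to 5.53 ± 0.259 FPKM (log2 fold change -1.04, SE 0.059, edgeR adjusted p = 2.43e-16). KLF14 fell by 1.75 (SE 0.39, edgeR adjusted p = 0.000257), on 21 to 26 counts per si-NC library and 3 to 13 per si-STRIP2 library, and it was no longer tested when at least 1 FPKM in 3 libraries was required. Its log2 fold change was -2.61 without si-STRIP2 replicate 1, which held 13 of its counts, and ranged up to -1.44 when another library was left out. The others that fell, named to complete the list after their values were seen, were KLF3, KLF11, KLF12, KLF13 and KLF15. KLF2, KLF7, KLF8 and KLF16 did not pass. KLF10 supplied 27.8% ± 0.224 of the summed FPKM of all 17 KLF genes in si-NC and 39.5% ± 0.565 in si-STRIP2, while the share of KLF4 went from 20.6% ± 1.02 to 14.6% ± 0.0701 (SD, n = 3).

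**Figure D2:**
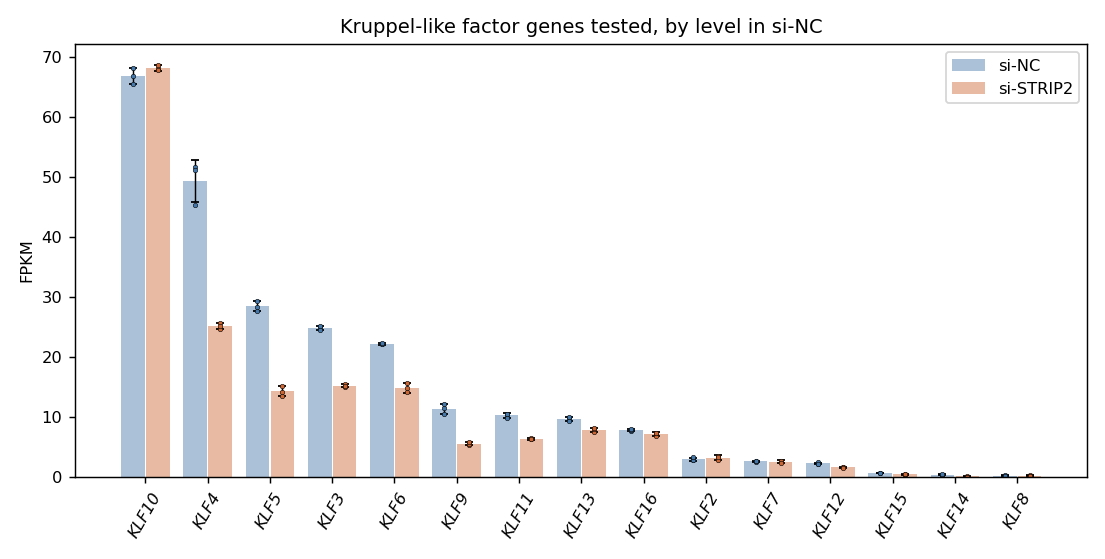
FPKM (y axis, from 0) of the 15 tested Kruppel-like factor genes in si-NC and si-STRIP2, ordered by si-NC level. Bars are means, points are libraries and error bars are SD (n = 3); KLF10 is the highest in both groups and level between them, and KLF4, KLF5, KLF3, KLF6, KLF9 and KLF11 are lower in si-STRIP2.

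GADD45A (ENSG00000116717, chromosome 1, 67685201 to 67688334, plus strand) is induced by DNA damage and other stresses, and its protein binds PCNA, the CDK1 and cyclin B1 kinase and MAP3K4, the kinase upstream of p38. It had 117.74, 122.62 and 115.32 FPKM in si-NC and 55.66, 52.80 and 54.32 in si-STRIP2. The si-STRIP2 values were all under 56 FPKM and the si-NC values all over 115. The log2 fold change was -1.13 (SE 0.041), a 2.19-fold lower level.

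Among 7 further genes of this family and its partners, 6 were tested, of which 2 fell, 3 rose and 1, MAP3K4, did not pass (median log2 fold change 0.097, against 0.014 over all tested genes, of which 27.0% were called lower and 27.8% higher). The paralogue GADD45B went from 9.92 ± 0.447 to 6.97 ± 0.556 FPKM (SD, n = 3; log2 fold change -0.51, SE 0.081, edgeR adjusted p = 2.10e-06), and GADD45G was not tested, at 0.0667 FPKM on average in si-NC and 0.0733 in si-STRIP2. GADD45A supplied 92.2% ± 0.0989 of the summed GADD45 FPKM in si-NC and 88.5% ± 0.456 in si-STRIP2. CDKN1A, the inhibitor of cyclin-dependent kinases that GADD45A also binds, went from 43.3 ± 0.822 to 28.4 ± 1.78 FPKM (log2 fold change -0.61, SE 0.045, edgeR adjusted p = 1.29e-13). PCNA, the sliding clamp of DNA replication, rose from 167.9 ± 9.56 to 230.003 ± 3.79 FPKM (log2 fold change 0.45, SE 0.042, edgeR adjusted p = 4.14e-11), and cyclin B1 (CCNB1) rose by 0.36 (SE 0.040, edgeR adjusted p = 1.49e-09). CDK1 rose by 0.093 (SE 0.040, edgeR adjusted p = 0.0457), a call lost under 9 of 14 alternatives, among them DESeq2 and the fits without si-NC replicate 1, si-NC replicate 3, si-STRIP2 replicate 2 and si-STRIP2 replicate 3.

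**Figure D3:**
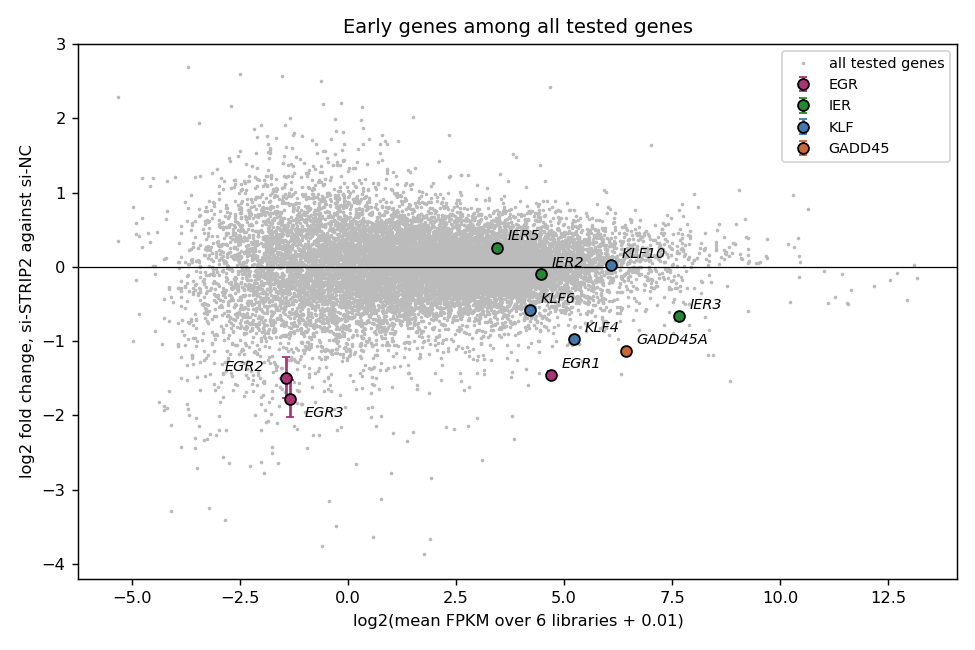
Log2 fold change in si-STRIP2 against si-NC (y axis) by mean level over the 6 libraries (x axis, log2 of FPKM + 0.01) for 15687 tested genes in grey and the 10 early genes in colour, with SE as error bars. EGR1, GADD45A, KLF4 and IER3 lie below most genes of similar level, EGR2 and EGR3 lie at low level with wide bars, and IER2, IER5 and KLF10 lie within the main cloud.

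Other primary response genes fell more often than they rose. This list, like the other gene lists here, was chosen with earlier results of these data known. Its counts and p-values are therefore a description and no independent test. Of 45 such genes, 44 were tested, of which 30 fell, 3 rose and 11 did not pass (median log2 fold change -0.37, against 0.014 over all tested genes, of which 27.0% were called lower and 27.8% higher). The largest falls included 3 subunits of the transcription factor AP-1: FOSB with a log2 fold change of -3.13 (SE 0.14), JUN with -2.60 (SE 0.082) and FOS with -2.01 (SE 0.084), with edgeR adjusted p-values of 9.13e-19, 3.11e-23 and 5.41e-20. FOS had 20.53, 19.60 and 26.06 FPKM in si-NC and 6.25, 5.22 and 4.94 in si-STRIP2, so that si-NC replicate 3 was its highest library, as it was for EGR1. FOSB is uncertain in part, because the overlapping gene ERCC1 held 367% as many counts.

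The orphan nuclear receptor gene NR4A3 fell by 1.66 (SE 0.21, edgeR adjusted p = 2.31e-08), and STX17-DT, which overlaps it, held 45.2% as many counts. The matricellular genes CCN1 and CCN2 fell by 1.66 (SE 0.080) and 1.44 (SE 0.26), with edgeR adjusted p-values of 3.70e-18 and 1.56e-05. Counts were low for NR4A3 (60 to 94 per si-NC library and 20 to 27 per si-STRIP2 library) and CCN2 (37 to 54 and 13 to 25). The 3 genes that rose were BTG2, an antiproliferative gene (log2 fold change 0.58, SE 0.069), FOSL1, a late AP-1 subunit (0.41, SE 0.054), and DUSP5, a nuclear ERK phosphatase (0.31, SE 0.045), with edgeR adjusted p-values of 9.03e-09, 6.01e-08 and 3.92e-07.

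**Figure D4:**
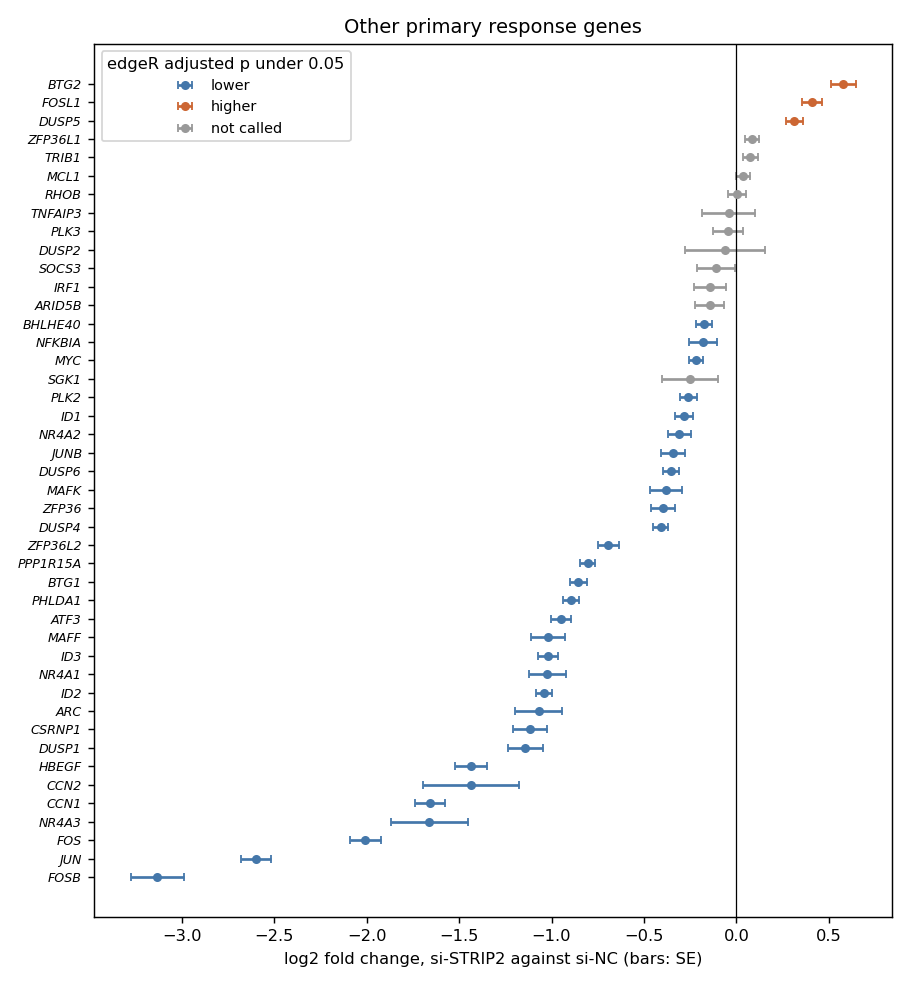
Log2 fold change in si-STRIP2 against si-NC (x axis, error bars SE) of the 44 tested primary response genes other than the 10, one per line. Of these, 30 were called lower, 3 higher and 11 were not called; FOSB, JUN and FOS lie lowest and BTG2 highest.

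Of SRF and 5 cofactor genes, 6 were tested, of which 1 fell and 2 rose (median log2 fold change -0.064, against 0.014 over all tested genes). The 3 called of 6 are near the 54.8% of all tested genes called either way (27.0% lower, 27.8% higher). The ternary complex factor ELK4 went from 15.2 ± 0.820 to 10.5 ± 0.419 FPKM (SD, n = 3; log2 fold change -0.53, SE 0.043, edgeR adjusted p = 1.27e-12), while its relative ELK3 rose by 0.17 (SE 0.042, edgeR adjusted p = 0.000703). SRF itself rose by 0.13 (SE 0.056, edgeR adjusted p = 0.0447), but its groups overlapped and the call was lost under 11 of 14 alternatives, among them the fits without si-NC replicate 2, si-NC replicate 3, si-STRIP2 replicate 1 and si-STRIP2 replicate 2.

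Of 15 genes of the ERK cascade and its RSK and MSK kinases, 4 rose, 5 fell and 6 did not pass (median log2 fold change -0.018, against 0.014 over all tested genes). These counts are close to the 27.8% higher, 27.0% lower and 54.8% called either way among all tested genes. Among the RSK genes, which encode kinases activated by ERK, RPS6KA1 rose by 0.53 (SE 0.067, edgeR adjusted p = 4.05e-08), whereas RPS6KA2 fell by 0.75 (SE 0.096, edgeR adjusted p = 4.48e-08) and RPS6KA3 fell by 0.36 (SE 0.043, edgeR adjusted p = 9.84e-09). Among the MSK genes, whose kinases phosphorylate histone H3 at early genes, RPS6KA4 rose by 0.30 (SE 0.067, edgeR adjusted p = 0.000241) and RPS6KA5 fell by 0.58 (SE 0.058, edgeR adjusted p = 2.10e-10), although DGLUCY, which overlaps RPS6KA5, held 75.9% as many counts. Transcript levels do not report the activity of these kinases.

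The order of levels among the 10 genes changed in part between the groups. In si-NC the order by mean FPKM was IER3, GADD45A, KLF10, KLF4, EGR1, IER2, KLF6, IER5, EGR3 and EGR2. The ranges of IER2 and KLF6 overlapped there, as did those of EGR3 and EGR2. In si-STRIP2 the order was IER3, KLF10, GADD45A, KLF4, IER2, KLF6, EGR1, IER5, EGR2 and EGR3. KLF10 (68.2 ± 0.487 FPKM) thus stood above GADD45A (54.3 ± 1.43), and EGR1 (13.9 ± 0.262) stood below IER2 (21.4 ± 0.709) and had a range that overlapped that of KLF6 (14.8 ± 0.767; SD, n = 3). EGR2 and EGR3 overlapped again.

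The 10 genes are short and have few introns, as is known for early response genes. By the coordinates of the deposited table their spans ran from 1350 bases (IER3) to 9286 bases (KLF6), and all 10 were under 10000 bases, against 17.8% of 12734 tested protein-coding genes. The longest protein-coding transcript in GENCODE 29 had 1 exon for IER2, IER3 and IER5, 2 for each of the 3 EGR genes, 4 for KLF6, KLF10 and GADD45A and 5 for KLF4. At most 4 exons were found in 9 of the 10 genes and in 20.1% of the protein-coding genes. The word TATTTAT, the core of AU-rich elements that mark short-lived transcripts, was counted in the 3′ UTRs. It occurred 4 times in IER3, 4 times in IER5 and once each in GADD45A and KLF6, and was not found in the other 6 genes. The 4 of 10 genes with the word compare with 35.1% of the protein-coding genes that have a 3′ UTR, so the share is near the background, and the pooled density was 0.603 per kilobase against 0.319. Of these 4 genes, IER3, GADD45A and KLF6 were called lower in si-STRIP2 cells and IER5 was called higher. A link between the word and the differences was not tested.

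For the 5 genes with the largest differences, the most similar profile was sought among 11290 other genes with a symbol and a mean of at least 1 FPKM. The measure was the root mean square difference between log2 counts, scaled to library size and each centred on its own mean over the 6 libraries. The nearest gene to EGR1 was SLC30A1, a zinc exporter (0.056), and the nearest to GADD45A was PPTC7, a mitochondrial phosphatase (0.035). SEPHS2, which makes selenophosphate, was nearest to KLF4 (0.024), HBEGF, a ligand of the EGF receptor, to EGR2 (0.11), and SELENOP, a secreted selenoprotein, to EGR3 (0.17). With 2 groups of 3 libraries, the measure mostly follows the size of the group difference.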

How the data were processed

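RNA-seq of 6 HCT116 libraries was analysed, 3 per group, grouped by their titles. Poly(A) RNA was selected and directional libraries were made, per the labels' protocols. The submitters' processing notes name bcl2fastq 2.20.0.422, FastQC 0.10.1, cutadapt 1.9.1, HISAT2 2.2.1, HTSeq 0.6.1 and GRCh38.p13. The annotation release and the strand setting are not given in the sources used here. The authors deposited a raw count and an FPKM value per gene and library, per the file headers. The deposited FPKM differed by at most 0.005 from a recomputation from count, exonic size and library total.

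Counts were tested in R 4.3.3 with edgeR 4.0.16 across all genes: filterByExpr (minimum count 10), TMM scaling, a quasi-likelihood fit with group as the only term, and Benjamini-Hochberg adjustment over 15687 genes, with a threshold of 0.05. The SE was obtained from the log2 fold change and the F statistic (its size over the root of F). FPKM served for levels and for limma 3.58.1 on log2(FPKM + 1), an alternative computed from the deposited FPKM. DESeq2 1.42.0 and 12 other alternatives were also run. The script was tested on simulated data in which few genes or none were changed. That test does not check the fit under changes in as many genes as were called here.

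The 10 genes and the gene lists were chosen with earlier results of these data known. Genes named from a list were its called members with groups that did not overlap, the 3 largest differences in each direction (6 for the primary response genes), and SRF. Genes with 3 counts or fewer in a library cannot be told from 0 there.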

Additional observations from a re-analysis of the deposited data

How the results depend on the processing

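Results were recomputed under 14 alternatives, 1 of them (leaving out mitochondrial genes) chosen after seeing the data. The 7 early genes called lower and the 1 called higher kept direction and call wherever they were tested. EGR2 and EGR3 did not pass a filter of 1 FPKM in 3 libraries, which left 5 called lower. IER2 was called lower in 1 fit, without si-NC replicate 2. The log2 fold change of EGR1 ranged from -1.49 to -1.39 and that of GADD45A from -1.15 to -1.11. Under limma on log2(FPKM + 1) EGR2 and EGR3 were at -0.36 and -0.44, FOSB at -1.58, NR4A3 at -0.45, CCN2 at -0.58, KLF14 at -0.31, RPS6KA2 at -0.43 and RPS6KA5 at -0.35, since the pseudocount of 1 is large beside their levels. Of the other KLF genes 6 to 8 were called lower, and of the other primary response genes 28 to 30 were called lower and 3 to 4 higher. The 6 and the 28 came from the filter of 1 FPKM in 3 libraries, which KLF8, KLF14 and KLF15 did not pass. The median over all tested genes stayed between 0.0021 and 0.046. TMM scaling of FPKM left 0 genes out of place in the order of levels in either group. Replicate numbers did not pair the libraries: deviations of same-numbered libraries correlated at -0.084, -0.015 and -0.068. With the replicate number as a block, 7 early genes were called lower and 1 higher, and 4097 and 4196 of all genes, against 4240 and 4359. Low counts limit EGR2, EGR3, KLF14, KLF15, NR4A3 and CCN2. NR4A3 and CCN2 also did not pass the filter of 1 FPKM in 3 libraries.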

Other observations

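The promoter words were also counted over 11074 tested genes that have a RefSeq window, of which 28.7% were called lower and 29.7% higher in si-STRIP2 cells by edgeR. Of 166 genes with a CArG box, 37.3% were called lower and 30.7% higher (median log2 fold change -0.017). EGR1 and EGR2 are among them and were chosen with their differences known, so nothing is read from their place in this set. Of 939 genes with the TATA box word, 38.02% were lower and 24.1% higher (median -0.086), and of 537 with an AP-1 site, 34.8% were lower and 20.5% higher (median -0.11). Of 3792 with the ETS word, 26.6% were lower and 33.2% higher (median 0.028). Of 740 with the heat shock pair, 28.0% were lower and 29.6% higher (median 0.011). Of 1347 with the EGR site, 32.1% were lower and 27.6% higher (median -0.023). Of 416 with the cyclic AMP element TGACGTCA, 33.9% were lower and 28.6% higher (median 0.00090). The other words searched are not listed here. No set was tested against the rest, and promoters that hold these words may differ in other ways.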
